A study of Penicillium oxalicum with 15 samples.

Results

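POX06835 is 1 of 9512 gene identifiers in a set of RNA sequencing libraries from the filamentous fungus Penicillium oxalicum. It was selected by its identifier, with earlier results of these data known. It is taken here as a beta-glucosidase gene. That role, and the roles given below to other identifiers, were recalled from published work on this species and were not checked, because the files carry no gene names and none of the identifiers could be paired with one. POX05587 and POX04786, recalled as cellobiohydrolase genes, served as references in every library.

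The 15 libraries came from mycelium of solid-state cultures, in which the fungus grows on moist particles, kept static at 28 °C for 5 days. The carbon sources of strain EU2101 were WB, WB plus AV, and WR, with 3 libraries each. The mutant strains MuKu70 and MuPOX03016 had 3 libraries each, all from WR. What these abbreviations stand for is not given, and titles and growth field differ for AV (WA) and for the WR cultures of EU2101 (WB_RS). How the mutants arose, how EU2101 relates to them, and whether replicates were separate cultures is not stated, so p-values weigh only the spread among these libraries, perhaps a technical one. Ku70 belongs to the DNA repair machinery, and its loss eases gene replacement in fungi.

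Fungi break cellulose down with secreted enzymes of several kinds. Endoglucanases cut within the chain, cellobiohydrolases release the disaccharide cellobiose from its ends, and beta-glucosidases split cellobiose into glucose. Cellobiose slows the cellobiohydrolases when it builds up, so beta-glucosidase activity bears on the whole reaction, and low beta-glucosidase is a known weakness of some fungal cellulase preparations.

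Estimated counts summed to 1782848 to 3414915 per EU2101 library and to 6609605 to 7335888 per mutant library. POX03016, the gene after which 1 mutant is named, stood at 105 ± 29.4 FPKM (SD, n = 3) in MuKu70 and at 18.8 ± 1.05 FPKM in MuPOX03016, without overlap; where its remaining reads lie within the gene cannot be seen from these values. FPKM scales fragments by gene length and library total, so that it can be compared between genes. WB replicate 1 differed from WB replicates 2 and 3 by a chi-square of 53.4 and 56.5 per degree of freedom, against 10.6 between those 2. EU2101 and mutant libraries rested on different gene lengths. POX06835 had an implied effective length of 2513 to 2531 bp in the EU2101 libraries and 2868 to 2948 bp in the mutant libraries, while both references differed only by the shift of about 71 bp shared by most genes. The counts of POX06835 were whole numbers in all EU2101 libraries and fractional in all 6 mutant libraries. So were those of POX08484, a gene described below. Of the genes listed, 13.4 to 14.2% had fractional counts in a mutant library and 0.173 to 0.313% in an EU2101 library. How the fractions arose was not tested, and the mutant levels of both genes are uncertain to the extent that reads were divided with another gene.

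POX06835 was read in all 15 libraries at a moderate to high level and was highest in the mutants. On WB the replicates stood at 133, 353 and 292 FPKM. On WB plus AV they stood at 184, 352 and 309 FPKM, and on WR at 136, 179 and 159.7 FPKM. Replicate 1 was the lowest and replicate 2 the highest in each of these EU2101 groups, and WB replicate 1 lay below all 3 WR libraries. MuKu70 gave 685, 865 and 546 FPKM and MuPOX03016 gave 773, 616 and 556 FPKM. All 6 mutant libraries lay above all 9 EU2101 libraries.

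**Figure D1:**
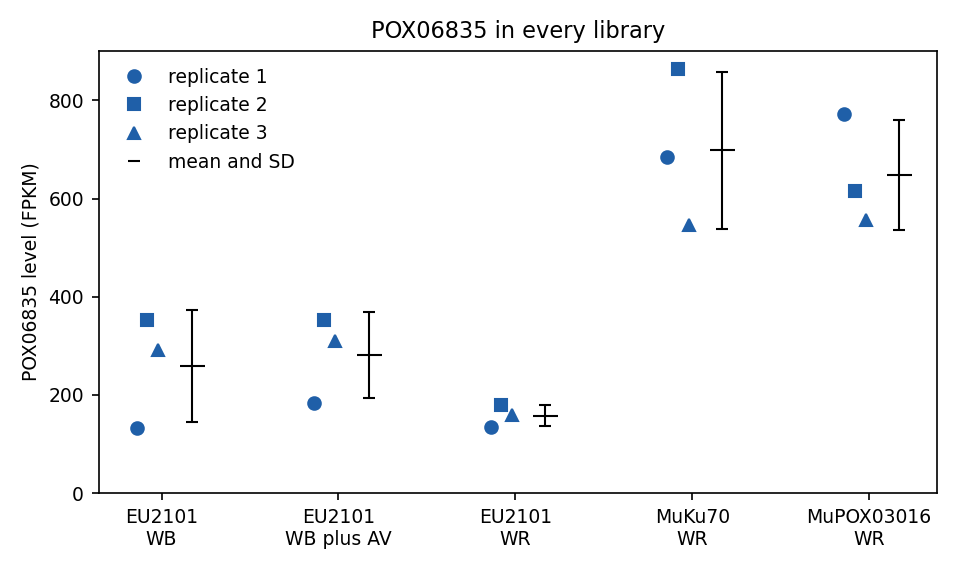
POX06835 level in FPKM (linear axis from 0) in each of 15 libraries, by group, with the symbol giving the replicate number and the bar the mean and SD of 3. EU2101 libraries lay between 133 and 353 FPKM and mutant libraries between 546 and 865 FPKM.

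The group means, from high to low, were 698 ± 160.0 FPKM in MuKu70, 648 ± 112 in MuPOX03016, 282 ± 87.6 with WB plus AV, 259 ± 114 with WB and 158 ± 21.5 with WR (SD, n = 3). Between neighbours in this order no difference passed the test, either among the EU2101 groups or between the mutants. The step from MuPOX03016 to WB plus AV changes strain, carbon source and gene model together and was not tested. By FPKM the gene ranked 427 to 1430 among the 8665 to 8997 genes listed in an EU2101 library, and 148 to 267 in a mutant library.

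These levels rested on 806 to 2125 estimated counts per EU2101 library and 10776 to 18283 per mutant library. Counting error was therefore 2.17 to 3.52% and 0.74 to 0.963%. The coefficient of variation between replicates was larger, at 43.9% on WB, 31.1% on WB plus AV, 13.6% on WR, 22.9% in MuKu70 and 17.3% in MuPOX03016.

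By its title the series is about different inducing carbon sources. In bulk RNA, fewer cells that express a gene and less of its RNA per cell cannot be told apart. For POX06835 no carbon source comparison passed the threshold of an adjusted p of 0.05. WB plus AV against WB gave a log2 fold change of 0.03 (SE 0.43, 95% interval -0.92 to 0.99, adjusted p = 0.978 in edgeR's quasi-likelihood test). As a fold, that interval runs from 0.528 to 1.98. WR against WB gave -0.77 (SE 0.43, interval -1.73 to 0.19, adjusted p = 0.248), and WR against WB plus AV gave -0.80 (SE 0.43, interval -1.76 to 0.16, adjusted p = 0.359). Same-numbered libraries deviated together between some of these groups, as given below. With a replicate block the comparisons gave, in this order, 0.11 (interval -0.52 to 0.74), -0.60 (-1.24 to 0.04) and -0.71 (-1.34 to -0.07). Their adjusted p-values in edgeR were 0.85, 0.145 and 0.144, so none passed. Only the interval of WR against WB plus AV, which is not adjusted over genes, excluded 0. On WR all 3 libraries lay below all 3 WB plus AV libraries, whereas WR and WB overlapped. An exact permutation test across the 3 carbon sources gave F = 1.81 and adjusted p = 0.243. Permutation within replicate numbers gave F = 9.88 and adjusted p = 0.167.

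WB replicate 1 decided the WR against WB result. Without it POX06835 passed as lower on WR, at -1.13 (adjusted p = 0.0153), and 2962 genes then passed in place of 1315. Without WB replicate 2 the value was -0.40 (adjusted p = 0.637). The value of WB plus AV against WB moved between -0.34 without WB replicate 1 and 0.40 without WB replicate 2, and it was also below 0 without WB plus AV replicate 2 or 3.

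The ratio of POX06835 to the cellobiohydrolase references differed between the carbon sources, with the highest mean on WB and the lowest on WR. These references were chosen with earlier results of these data known, and their own levels differed between carbon sources, as given below. The level of POX06835 alone did not pass the exact permutation test across the 3 carbon sources (adjusted p = 0.243). Nor did it pass permutation within replicate numbers (adjusted p = 0.167). In the WB replicates the FPKM of POX06835 was 8.31, 14.7 and 15.3% of that of POX05587. On WB plus AV it was 2.99, 4.24 and 5.34%, and on WR 1.65, 2.85 and 1.89%. No library of one carbon source overlapped with another. The log2 ratio averaged -3.02 ± 0.49 (WB), -4.62 ± 0.42 (WB plus AV) and -5.59 ± 0.41 (WR) (SD, n = 3 each), a difference between WR and WB of -2.57, or 5.94-fold. Across the 3 carbon sources the exact permutation test gave F = 25.8 and p = 0.00357, the smallest value that 3 groups of 3 allow, with adjusted p = 0.0143 over the 4 measures tested. Permutation within replicate numbers gave p = 0.0278, the smallest value it allows, with adjusted p = 0.037.

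Against POX04786 the same order of means appeared with more spread. POX06835 stood at 3.22, 13.5 and 16.1% of its FPKM on WB, at 1.5, 2.75 and 4.02% on WB plus AV and at 0.869, 1.54 and 1.18% on WR. WB replicate 1 lay among the WB plus AV libraries, while all WB libraries lay above all WR libraries. The log2 ratio averaged -3.50 ± 1.27, -5.29 ± 0.72 and -6.42 ± 0.41 (SD, n = 3), and the exact permutation test across the carbon sources gave F = 8.51 and adjusted p = 0.0429. That call was lost with any library other than WB replicate 1 left out (adjusted p = 0.0571 to 0.157), whereas for POX05587 none of the 9 libraries, left out in turn, ended the call (adjusted p = 0.00952 to 0.0429). With all 9 libraries, permutation within replicate numbers gave p = 0.0278 and adjusted p = 0.037 for the ratio to POX04786.

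The pairwise tests of these ratios could not pass. In each pair of groups 3 libraries met 3, and an exact two-sided permutation test cannot go below p = 0.1. The exact permutation test gave p = 0.1 for 8 of the 10 ratio comparisons (adjusted p = 0.125) and, with POX04786, p = 0.2 (adjusted p = 0.2) where WB plus AV was compared with WB or with WR.

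**Figure D2:**
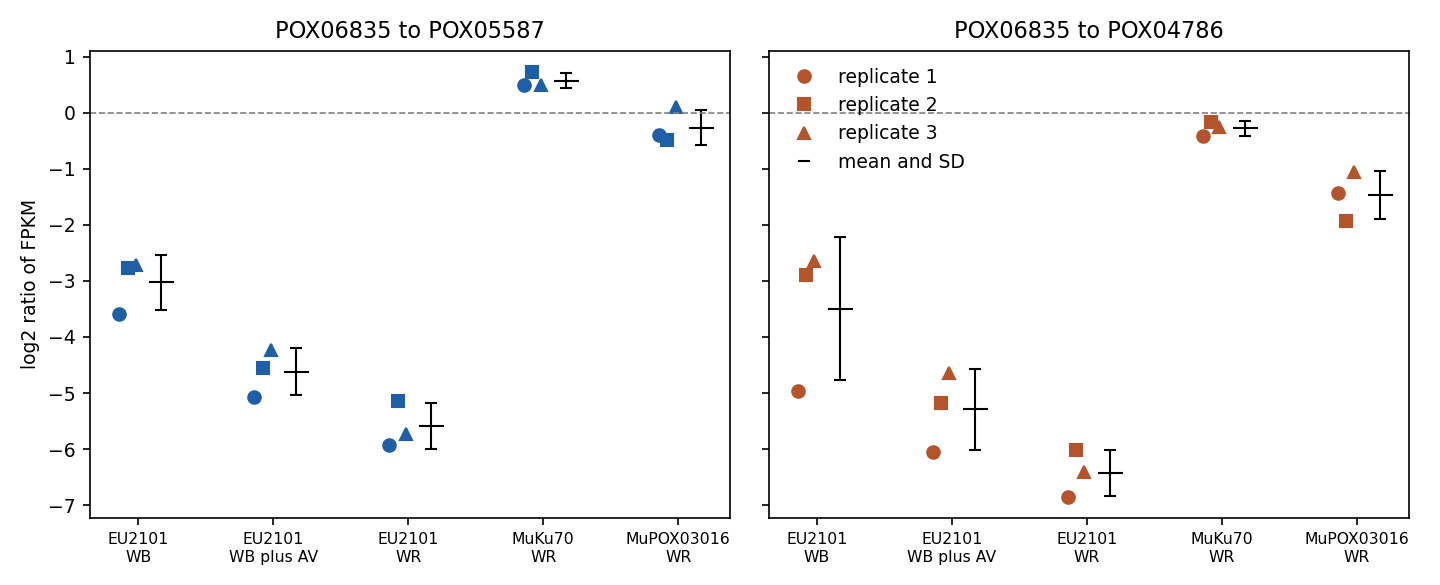
Log2 ratio of POX06835 FPKM to that of POX05587 (left) and POX04786 (right) in each library, with the mean and SD of 3 per group; the dashed line marks equal FPKM. Ratios to POX05587 averaged -3.02, -4.62 and -5.59 in the EU2101 groups and lay near 0 in both mutants.

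The reference levels themselves differed between carbon sources. In the order WB, WB plus AV, WR, POX05587 averaged 1969 ± 407, 6748 ± 1361 and 7646 ± 1195 FPKM, and POX04786 averaged 2854 ± 1171, 10903 ± 2799 and 13574 ± 2002 FPKM (SD, n = 3). In edgeR both were higher on WR than on WB, POX05587 by 1.94 on the log2 scale (adjusted p = 0.0079) and POX04786 by 2.30 (adjusted p = 0.00478), beside the -0.77 of POX06835.

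The other 12 identifiers of a recalled panel of cell wall degrading enzymes give the wider setting. The panel was chosen with earlier results of these data known, so counts of its members give no independent support. It holds both references, 7 endoglucanase genes (POX05570, POX05571, POX01166, POX01896, POX02740, POX06147 and POX07535) and 3 genes of xylanases, enzymes that cut the hemicellulose xylan (POX00063, POX06783 and POX08484). On WR, relative to WB, 11 of these 12 passed as higher and 0 as lower. Of 8079 genes tested 16.3% were called, 8.66% higher and 7.61% lower. The members' median log2 fold change was 2.04, and that of all genes was -0.03. The 11 calls fell to 8 without WB replicate 2 or 3, or WR replicate 1 or 3, where 6.76 to 7.46% of all genes were called. DESeq2 called 11 members higher and 1 lower, where 22.2% of all genes were called. The xylanase gene POX06783 rose by 4.49 (adjusted p = 0.00577), from 212 ± 245 to 4271 ± 1007 FPKM, and the endoglucanase gene POX07535 by 3.62 (adjusted p = 0.00131). POX02740 stood below POX06835, at -1.34 (adjusted p = 0.0856). Its level was 707 ± 295 FPKM on WB and 285 ± 64.6 FPKM on WR (SD, n = 3), and without WB replicate 1 it passed as lower, at -1.67 (adjusted p = 0.0128).

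With AV added to WB, 2 members rose and 0 fell, while 1.18% of all genes were called, 0.681% higher and 0.495% lower. Those that rose were POX04786, at 1.94 (adjusted p = 0.0433), and the endoglucanase gene POX01896, at 1.84 (adjusted p = 0.0256). The members' median was 1.62, beside 0.01 for all genes. Same-numbered libraries deviated together in this pair of groups. With the replicate number as a block 10 of the 12 rose, where 6.31% of all genes were called, and POX06835 stood at 0.11 (adjusted p = 0.85). Leaving out WB replicate 1 also gave 10, where 21.7% of all genes were called. Leaving out each of the other 5 libraries gave 0, where 0.0489 to 0.685% of all genes were called. Between WR and WB plus AV 3 of the 12 were higher on WR and 0 lower, while 5.09% of all genes were called, 3.24% higher and 1.84% lower. Those 3 were POX07535, at 2.22 (adjusted p = 0.0162), and the xylanase genes POX08484, at 1.74 (adjusted p = 0.0458), and POX00063, at 1.32 (adjusted p = 0.0358). The replicate block gave 5, where 10.8% of all genes were called, and put POX06835 at -0.71 (adjusted p = 0.144). Of the 3 calls 1 was left without WR replicate 2, likewise 1 without replicate 1 of WB plus AV, and 0 without each of the other 4 libraries. The 3 carbon source comparisons share libraries.

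**Figure D3:**
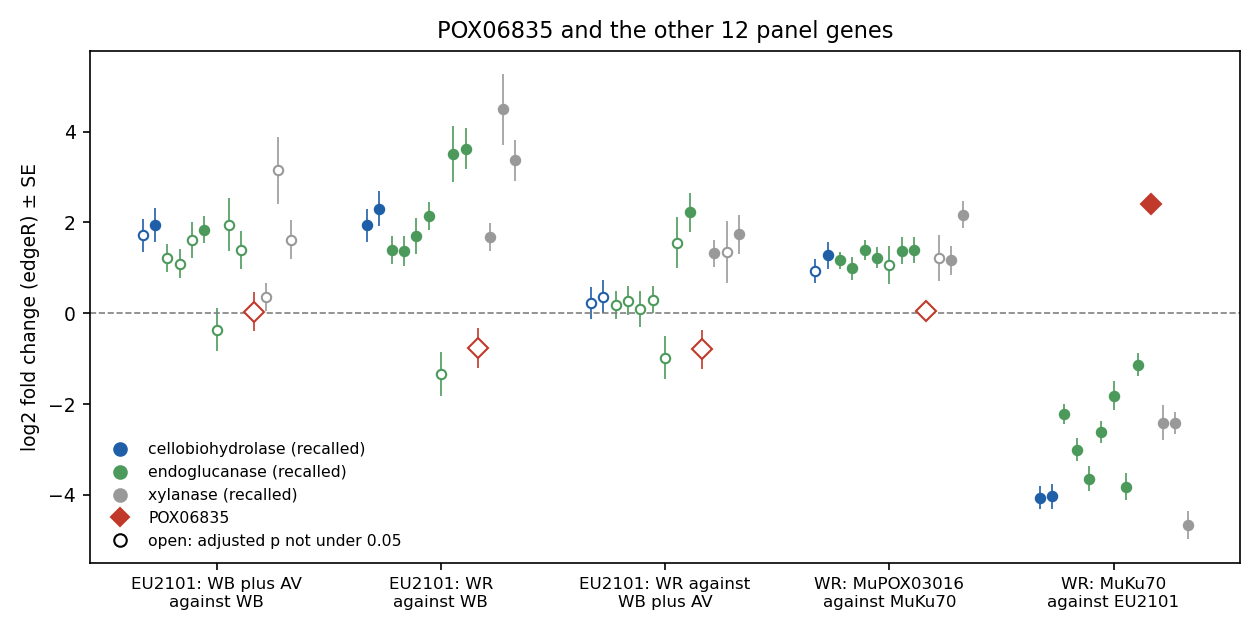
Log2 fold change with its SE (edgeR) of POX06835 (red diamond) and the other 12 panel genes (circles, coloured by recalled enzyme class) in 5 comparisons; filled symbols have an adjusted p under 0.05. POX06835 lay at 0.03, -0.77, -0.80, 0.04 and 2.39 from left to right, and was filled only in MuKu70 against EU2101.

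Over the 9 EU2101 libraries POX02740 correlated with POX06835 at r = 0.74 on the log2(FPKM + 1) scale, while the other 11 panel members gave r between -0.70 and -0.12. Among 6518 genes with a mean of at least 10 FPKM the median r was -0.21 and the 95th percentile 0.75, and POX02740 ranked 356. In the 6 mutant libraries r lay between 0.06 and 0.38 for all 12. These correlations describe libraries that share strain and replicate number.

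Within the summed FPKM of the 13 panel genes, POX06835 took 0.614, 2.39 and 2.45% in the WB replicates. It took 0.338, 0.735 and 0.9% on WB plus AV, and 0.18, 0.357 and 0.247% on WR. All WR shares lay below all WB shares, and WB replicate 1 lay within the WB plus AV range. Across the carbon sources the exact permutation test gave F = 4.99 and adjusted p = 0.105, and permutation within replicate numbers gave adjusted p = 0.037. Without WB replicate 1 the adjusted p was 0.00952. In MuKu70 the share was 8.47, 9.77 and 9.45%, and in MuPOX03016 it was 4.29, 3.37 and 4.93%, without overlap between the strains. POX06835 had the lowest FPKM of the 13 in 6 of 9 EU2101 libraries, and ranked 6 or 7 in MuKu70.

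**Figure D4:**
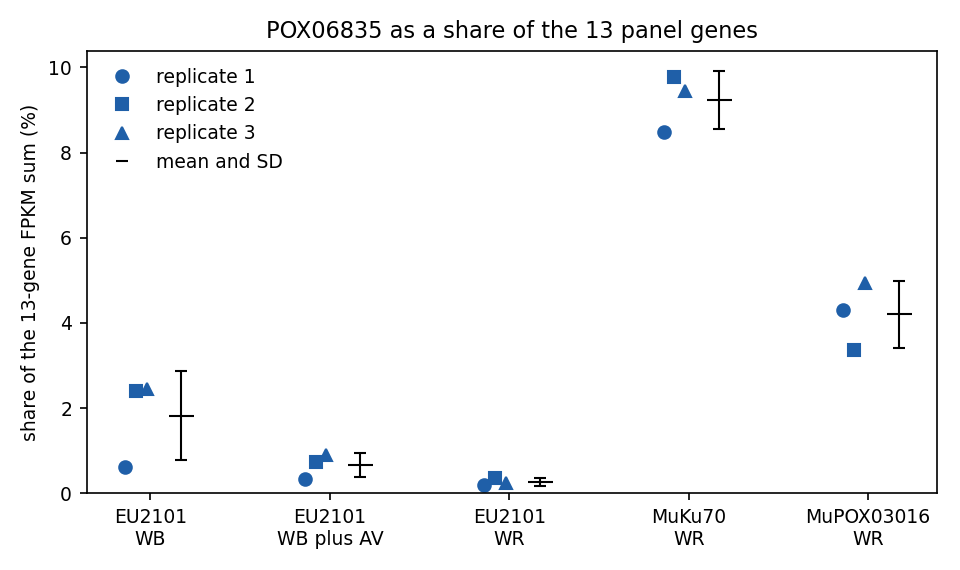
POX06835 as a percentage of the summed FPKM of the 13 panel genes in each library (linear axis from 0), with the mean and SD of 3 per group. Shares stayed at or below 2.45% in EU2101, and lay between 8.47 and 9.77% in MuKu70 and between 3.37 and 4.93% in MuPOX03016.

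The design text names a search for regulators of cellulase and hemicellulase genes, and MuPOX03016 against MuKu70 on WR bears on POX03016. POX06835 did not pass in this comparison, at 0.04 on the log2 scale (SE 0.21, 95% interval -0.46 to 0.54, adjusted p = 0.917 in edgeR), and the strains' libraries overlapped. The sign turned to -0.11 with library totals only, where the median of all genes lay at -0.14. Of the other 12 panel genes 9 passed as higher in MuPOX03016 and 0 as lower. Among 7931 genes 18.4% were called, 10.8% higher and 7.55% lower. The 12 had log2 fold changes between 0.93 and 2.17 and a median of 1.22, beside 0.00 for all genes. The xylanase gene POX08484 rose by 2.17 (adjusted p = 0.00385), from 232 ± 49.9 to 953 ± 328 FPKM. POX04786 rose by 1.27 (adjusted p = 0.0262), and POX05587 stood at 0.93 (adjusted p = 0.0503). The 9 calls fell to 3, 5 and 4 without MuKu70 replicate 1, MuKu70 replicate 3 and MuPOX03016 replicate 1. In these fits 6.78, 13.5 and 12.7% of all genes were called.

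POX06835 was 142, 165 and 140.5% of POX05587 in the MuKu70 replicates and 75.7, 70.9 and 107% in those of MuPOX03016. All MuPOX03016 values lay below all MuKu70 values, as they did against POX04786, at 74.6, 89.1 and 84.1% in MuKu70 and 37.2, 26.4 and 48.0% in MuPOX03016. The log2 ratio differed by -0.84 (MuPOX03016 minus MuKu70) with POX05587 and by -1.19 with POX04786 (exact permutation p = 0.1 for both, the smallest possible value; adjusted p = 0.125).

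MuKu70 against EU2101 on WR was the comparison in which POX06835 itself differed. In MuKu70 it was higher by 2.39 on the log2 scale (SE 0.20, 95% interval 1.94 to 2.85, adjusted p = 2.16e-05 in edgeR), or 5.26-fold. This fit does not correct for gene length, and limma on log2(FPKM + 1), which does, gave 2.12 (adjusted p = 0.000141). A call is common here, since 62.8% of 8287 genes were called, 31.5% higher and 31.3% lower. The other 12 panel genes were all lower in MuKu70, with log2 fold changes between -4.67 and -1.14 and a median of -2.81, beside -0.01 for all genes. POX08484 stood at -4.67 (adjusted p = 7.15e-06) and POX07535 at -1.14 (adjusted p = 0.00498). The log2 ratio to POX05587 averaged -5.59 ± 0.41 in EU2101 and 0.57 ± 0.13 in MuKu70, and that to POX04786 -6.42 ± 0.41 and -0.28 ± 0.13, with no overlap (SD, n = 3; exact permutation p = 0.1 for both, adjusted p = 0.125). Strain, sequencing depth and the gene models behind the values cannot be told apart in this comparison. The difference in effective length of POX06835 amounts to 0.21 on the log2 scale, and POX01896, POX02740, POX06147 and POX00063 also had other lengths in the mutant libraries.

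POX03016 was set beside POX06835 among the EU2101 libraries after both had been seen to vary, so the relation is given as a description, without a test. The WB replicates held 188, 499 and 195 FPKM of POX03016, those on WB plus AV 109, 445 and 214, and those on WR 75.5, 241 and 98.3. Replicate 2 held the highest value of both genes in all 3 groups. Over the 9 libraries, which share carbon sources and replicate numbers, Pearson's r on the log2 scale was 0.78 and Spearman's rho 0.78. By r with POX06835, POX03016 ranked 263 of 6518 genes, and the 95th percentile of all genes was 0.75. After removal of group means r was 0.72, and after removal of the means of replicate numbers it was 0.70. Without the libraries farthest from the median of POX03016, WB replicate 2 and WR replicate 1, r was 0.63 over 7 libraries, so the relation rests in part on them. Over the 6 mutant libraries, where POX03016 separates the strains, r was 0.32 and no test was made. On TMM-scaled log2 CPM, r was 0.03 over the mutant libraries and 0.80 over the 9 EU2101 libraries.

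**Figure D5:**
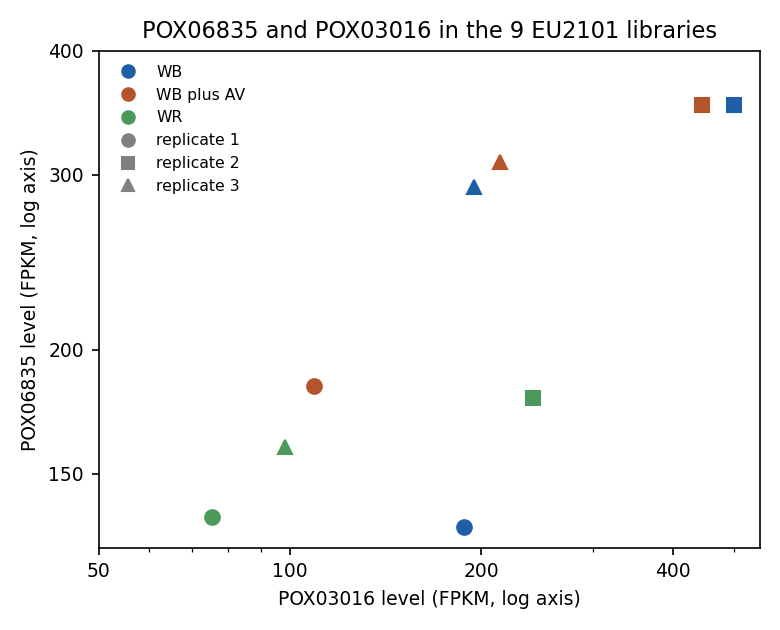
POX06835 against POX03016 level in the 9 EU2101 libraries (FPKM, both axes logarithmic), with the colour giving the carbon source and the symbol the replicate number. Replicate 2 lies to the right in each carbon source, at 499, 445 and 241 FPKM of POX03016.

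The genes whose pattern was most like that of POX06835 were sought by r on the log2(FPKM + 1) scale over the 9 EU2101 and the 6 mutant libraries, ranked by the smaller of the 2 values among 6518 genes. POX07370 gave r = 0.87 and 0.88, and POX03765 gave 0.90 and 0.86. POX07370 followed the replicate pattern at a lower level, with 33.6, 64.4 and 46.7 FPKM on WB and 13.2, 21.5 and 10.3 FPKM in MuKu70, so it did not share the higher level of POX06835 in the mutants. POX03765 averaged 86.4 ± 36.7 FPKM on WB, 56.4 ± 17.1 on WR and 52.2 ± 13.9 in MuKu70. The most unlike patterns on this scale, ranked by the larger of the 2 values, were those of POX06524, with r = -0.91 and -0.90, and POX07236, with r = -0.89 and -0.90. On TMM-scaled log2 CPM the latter 2 ranked only 712 and 603 from the lowest of 6518. The files do not pair these identifiers with names.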

How the data were processed

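Per the file headers, the authors deposited 2 values per gene and library, the expected count (estimated reads, not always whole) and the FPKM. Genes at 0 are not listed. The submitters' processing notes name RSEM 1.2.12, Bowtie2 2.1.0, BWA 0.7.10-r789 and DESeq2. The genome build was not given in the sources used here. The table of names for 9964 genes matched 0 of 9512 identifiers, so no sequence or position is given. All value columns of the files were used.

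Groups came from sample titles. POX06835, the panel of 13 and all tests were chosen with earlier results of these data known, and the panel and its roles from recall. Genes named beyond the panel and POX03016 are the 2 most alike and 2 most unlike by r, as described in the report.

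After rounding, expected counts went through the quasi-likelihood F-test of edgeR 4.0.16 (R 4.3.3), with TMM factors and genes kept by filterByExpr at a minimum count of 10; p-values were adjusted by Benjamini-Hochberg over all genes tested. The 9 EU2101 libraries were fitted together, and each strain comparison over its 6 libraries. The procedure was also run on simulated counts. These gave all genes the same spread beyond sampling noise and no replicate effect, so they do not show its performance on these libraries. Standard errors were derived as the size of the log2 fold change over the root of F. Ratios of FPKM were compared by exact two-sided permutation, adjusted over 10 comparisons, and 3 groups by exact permutation of F, adjusted over 4 measures. Effective lengths are counts divided by FPKM and by the library total, and those of 5911 genes with at least 20 counts and 5 FPKM in every library were compared, of which 70.4% agreed within 20 bp of the common shift. Alternatives used DESeq2 1.42.0, limma 3.58.1 on log2(FPKM + 0.1, 1 or 5), other scalings, no filter, a replicate block and left-out libraries.

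All replicate pairs differed by more than sampling noise, with 7.96 to 56.5 for chi-square over its degrees of freedom. Deviations from group means of same-numbered libraries correlated at 0.57, 0.60 and 0.44 between WB plus AV and WB and at 0.32, 0.42 and 0.22 between WR and WB plus AV, so the numbers were taken to pair those groups. In each other comparison at least 1 same-numbered pair correlated below 0.1, which by itself was not taken as pairing. Between WR and WB the same-numbered pairs gave 0.089, 0.29 and 0.17, and differently numbered pairs at most 0.067. Both groups were taken as paired with WB plus AV, so the numbers may pair WR and WB too. Between MuPOX03016 and MuKu70 the same-numbered pairs gave 0.029, 0.27 and 0.42, so the numbers may pair those groups in part.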

Additional observations from a re-analysis of the deposited data

How the results depend on the processing

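POX06835 kept its direction and its side of the threshold in MuKu70 against EU2101 under all settings (2.09 to 2.41, and 2.22 to 2.54 with 1 library left out), and in WR against WB plus AV (-0.83 to -0.71, and -1.05 to -0.56). In WR against WB it ranged from -0.77 to -0.59, and from -1.13 to -0.40 with 1 library left out, called only without WB replicate 1. In WB plus AV against WB left-out libraries gave -0.34 to 0.40. In MuPOX03016 against MuKu70 its sign turned with library totals only (-0.11), upper-quartile scaling (-0.022) and limma on log2(FPKM + 1), (FPKM + 5), (FPKM + 0.1) and (FPKM + 1) without a filter (-0.10 each), and left-out libraries gave -0.13 to 0.20; the median of all genes was then -0.14 with library totals and -0.14 to -0.11 in limma. In that comparison 857 genes were called higher and 599 lower, against 558 and 1140 with library totals only, and in MuKu70 against EU2101 2610 and 2597, against 2030 and 3339 with upper-quartile scaling, where the median of all genes was -0.21. Genes called numbered 3 to 547, 1067 to 2291, 243 to 873, 712 to 1797 and 4293 to 5369 over the settings that tested all genes, in the order of the comparisons in the plot of panel genes, and 4 to 1769, 548 to 2962, 155 to 393, 542 to 1270 and 4557 to 5018 with 1 library left out.

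Other panel members called in WB plus AV against WB numbered 10 in DESeq2, 4 in limma on log2(FPKM + 1) and on log2(FPKM + 5), 10 with a replicate block, 0 with only the 2 groups fitted, and 0 to 10 with 1 library left out. In WR against WB they numbered 12 in DESeq2 (22.2%) and 8 to 12 with 1 library left out (6.76 to 36.3%). In WR against WB plus AV they numbered 5 with a replicate block and 0 to 1 with 1 library left out. In MuPOX03016 against MuKu70 they numbered 12 with a replicate block, 11 in DESeq2, 5 in limma on log2(FPKM + 0.1), 5 in limma on log2(FPKM + 1) without a filter, and 3 to 9 with 1 library left out; the cause was not tested. The F values across carbon sources ranged from 16.6 to 35.5 for the ratio to POX05587, from 5.10 to 29.0 for that to POX04786 and from 2.62 to 81.5 for the panel share with 1 library left out, and the panel share gave 11 with the replicate block. With the replicate block POX06835 stood at 0.11, -0.60, -0.71, 0.05 and 2.38 in the 5 comparisons, which changed none of its calls. Between WR and WB, where each library correlated best with its own number (0.089, 0.29 and 0.17), it moved the genes called from 1315 to 2291. No ratio difference changed sign in any setting. Ranked on TMM-scaled log2 CPM, POX07370 and POX03765 were 17 and 8 of 6518 genes, and POX06524 and POX07236 gave larger r of -0.46 and -0.51. The fit over the 4161 genes of equal effective length called 2161 and gave no value for POX06835, which is not among them.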
